A study of Caenorhabditis elegans with 20 samples.

Results

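The genes ain-1, alg-1, alg-2 and nhl-2 of Caenorhabditis elegans encode proteins of the microRNA-induced silencing complex or its cofactors. They were chosen by gene symbol in the array's probe table, where each had 1 probe, so they are 4 of 16378 genes and 4 of 17461 single-gene features on the array. The question was whether mRNAs of microRNA complex proteins are themselves recovered when that complex is immunoprecipitated (IP). The 20 samples of mixed-stage worms fell into 7 groups. Wild-type N2 worms gave the AIN-1 IP (n = 3), its control the preimmune IP (n = 3) and total RNA of the lysate (n = 2). A single-copy integrated line, called line A, that expresses AIN-2::GFP gave the AIN-2::GFP IP (n = 3) and AIN-2::GFP total RNA (n = 3). An injection line with GFP alone under the ain-2 promoter gave the GFP IP (n = 3) and promoter GFP total RNA (n = 3). Each transgene was represented by the line named, and with 2 or 3 arrays a group the precision is limited by their number.

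MicroRNAs guide an Argonaute protein to partly complementary sites in mRNAs, and a GW182-family protein bound to that Argonaute recruits factors that repress and destabilise the mRNA. In C. elegans the microRNA Argonautes are ALG-1 and ALG-2, close paralogs with overlapping roles in developmental timing, and the GW182-family proteins are AIN-1 and AIN-2. NHL-2 is a TRIM-NHL protein that acts as a cofactor of this complex and promotes repression by microRNAs of the let-7 and lsy-6 families.

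On the RefSeq assembly WBcel235, ain-1 (C06G1.4) lies on chromosome X from 16613451 to 16617675 and alg-1 (F48F7.1) on chromosome X from 13949489 to 13956261. The gene alg-2 (T07D3.7) lies on chromosome II from 873212 to 879885 and nhl-2 (F26F4.7) on chromosome III from 4893658 to 4899085. These are gene spans, and where each probe lies within its gene was not analysed here. The genes alg-1 and alg-2 are similar in sequence, and cross-hybridisation between their spots was not tested. The mRNA of ain-2, the protein tagged in the AIN-2::GFP strain, was not analysed here.

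Values are spot intensities after background subtraction, divided by the mean of each sample, so a value of 1 is the sample's average feature. Mean signal before that division was 629 to 907 scanner units in the AIN-1 IP, 329 to 729 in the AIN-2::GFP IP and 241 to 800 in total RNA. It was 9 to 47 in the preimmune IP and 370, 46 and 12 in GFP IP replicates 1, 2 and 3, so the control IPs other than GFP IP replicate 1 rest on very little signal. A background limit was set in each sample from 1276 chemoreceptor gene features, and 28 of 31 measured tissue markers lay above it in all 8 total RNA samples. The exceptions were the intestinal factor elt-2 and the sperm genes ssp-9 and spe-11.

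The mRNA of ain-1 was at its highest in the AIN-1 IP, where it read 4.13, 4.03 and 4.32 sample means in replicates 1, 2 and 3. Those spots were bright, at 3749, 2538 and 3490 scanner units, and exceeded ain-1 in each of the other 17 samples. In the preimmune IP the same spot read 0.333, 1.45 and 0.979 sample means, which corresponds to 3, 58 and 46 scanner units, and replicate 1 was not above the background limit. The preimmune samples overlapped N2 total RNA, where ain-1 read 1.37 and 0.944 sample means.

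In worms with the tagged AIN-2, ain-1 read 2.66, 3.93 and 2.74 sample means in the AIN-2::GFP IP and 1.59, 1.33 and 1.89 in their total RNA, with no overlap. In the GFP IP it read 1.09, 2.54 and 0.917, and in promoter GFP total RNA 1.45, 1.47 and 1.55. The GFP IP samples thus lay on both sides of the total RNA of their strain. On the normalized log2 scale the order of group means was AIN-1 IP (1.89 ± 0.01, SD), AIN-2::GFP IP (1.49 ± 0.35), GFP IP (0.54 ± 0.79), promoter GFP total RNA (0.49 ± 0.07), AIN-2::GFP total RNA (0.44 ± 0.18), preimmune IP (0.10 ± 1.10) and N2 total RNA (-0.24 ± 0.40). The AIN-1 IP did not overlap the AIN-2::GFP IP below it, and each later pair of neighbours overlapped.

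The alg-1 spot was near or below the background limit in most groups. It read above total RNA in every AIN-2::GFP IP sample and below it in every AIN-1 IP sample. In the AIN-2::GFP IP it read 298, 132 and 213 scanner units, or 0.409, 0.401 and 0.348 sample means, above the background limit in each replicate. In AIN-2::GFP total RNA it read 80, 58 and 51 units, or 0.138, 0.119 and 0.0960 sample means, also above the limit. No AIN-2::GFP IP sample overlapped that total RNA. In the GFP IP it read 5, -4 and 3 units, and no replicate was above the limit.

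The order was the opposite in the N2 strain. The alg-1 spot read 129 and 231 units in N2 total RNA, or 0.273 and 0.289 sample means, both above the limit. In the AIN-1 IP it read 30, 10 and 34 units, or 0.0331, 0.0159 and 0.0421 sample means, and none of these reached the limit although this IP had the highest mean signal of the 7 groups. The preimmune IP gave 1, 3 and -2 units and promoter GFP total RNA 17, 27 and 34 units, none of them above the limit.

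The order of alg-1 group means was AIN-2::GFP IP (-1.22 ± 0.09, SD of normalized log2), N2 total RNA (-2.35 ± 0.09), AIN-2::GFP total RNA (-3.28 ± 0.31), promoter GFP total RNA (-3.71 ± 0.33), AIN-1 IP (-4.06 ± 0.40), preimmune IP (-4.45 ± 1.35) and GFP IP (-4.72 ± 1.77). The first 3 groups did not overlap each other, and from AIN-2::GFP total RNA downwards each group overlapped the next. The last 4 groups held no sample above the limit, so their order is not a measured one.

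**Figure D1:**
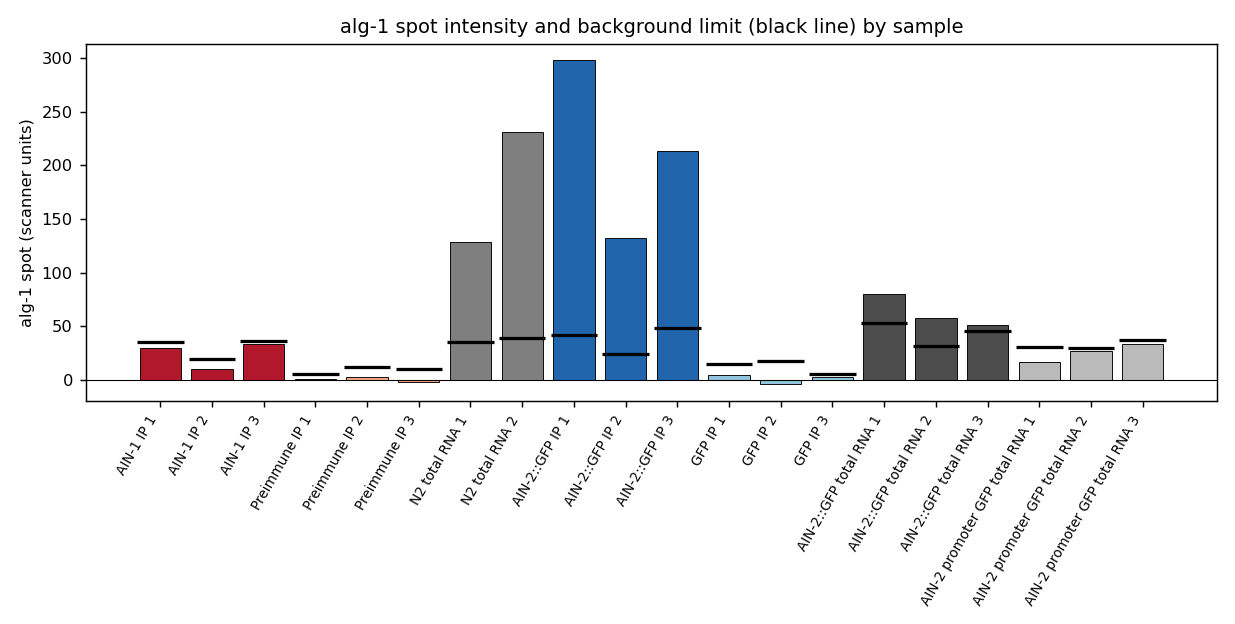
Intensity of the alg-1 spot in scanner units (bars) in each of the 20 samples, coloured by group, with the background limit of that sample as a black line. The 3 AIN-2::GFP IP bars (132 to 298) and the N2 total RNA bars (129 and 231) stand above their limits, while the 3 AIN-1 IP bars (10 to 34) and all preimmune IP, GFP IP and promoter GFP total RNA bars do not reach theirs.

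The Argonaute mRNA alg-2 read 1.45, 1.63 and 1.85 sample means in the AIN-1 IP, against 0.556, 0.925 and 0.532 for the preimmune IP and 0.678 and 0.828 for N2 total RNA. The AIN-1 IP samples lay above all samples of these controls, and preimmune replicate 1, at 5 scanner units, was not above the background limit. In the transgenic strains alg-2 read 2.33, 1.57 and 1.71 sample means in the AIN-2::GFP IP and 1.60, 1.16 and 1.48 in its total RNA, which overlapped on this scale but not after normalization. The GFP IP, at 1.04, 1.28 and 0.833, lay below promoter GFP total RNA, at 1.61, 1.46 and 1.32, and these overlapped after normalization.

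Group means of alg-2 ran from the AIN-2::GFP IP (0.80 ± 0.16, SD of normalized log2) and the AIN-1 IP (0.71 ± 0.10) to promoter GFP total RNA (0.46 ± 0.21), AIN-2::GFP total RNA (0.25 ± 0.20), the GFP IP (0.13 ± 0.45), the preimmune IP (-0.02 ± 0.22) and N2 total RNA (-0.88 ± 0.22). Each neighbour in this order overlapped the next, except that N2 total RNA lay below the preimmune IP without overlap.

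The mRNA of nhl-2 gave a bright spot, at the 98.3 to 99.7 percentile of all features in each sample. Its AIN-1 IP readings were 39.0, 35.2 and 30.3 sample means, against 3.67, 14.9 and 12.8 for the preimmune IP and 16.6 and 15.5 for N2 total RNA. The AIN-1 IP samples did not overlap either control. In the strain with tagged AIN-2 the IP read 27.5, 37.7 and 46.4 and the total RNA 25.4, 29.1 and 29.1. In the strain with GFP alone the IP read 16.7, 29.3 and 18.3 and the total RNA 28.5, 29.1 and 33.4. Replicate 1 of the AIN-2::GFP IP fell among the total RNA samples. The highest reading, 35370 scanner units in AIN-1 IP replicate 1, was below the brightest feature of that sample (62130).

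Group means of nhl-2 ran from the AIN-2::GFP IP (5.15 ± 0.37, SD of normalized log2), the AIN-1 IP (4.96 ± 0.18), AIN-2::GFP total RNA (4.88 ± 0.24) and promoter GFP total RNA (4.85 ± 0.19) to the GFP IP (4.51 ± 0.53), N2 total RNA (4.04 ± 0.09) and the preimmune IP (3.96 ± 0.28). Each group overlapped the next.

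**Figure D2:**
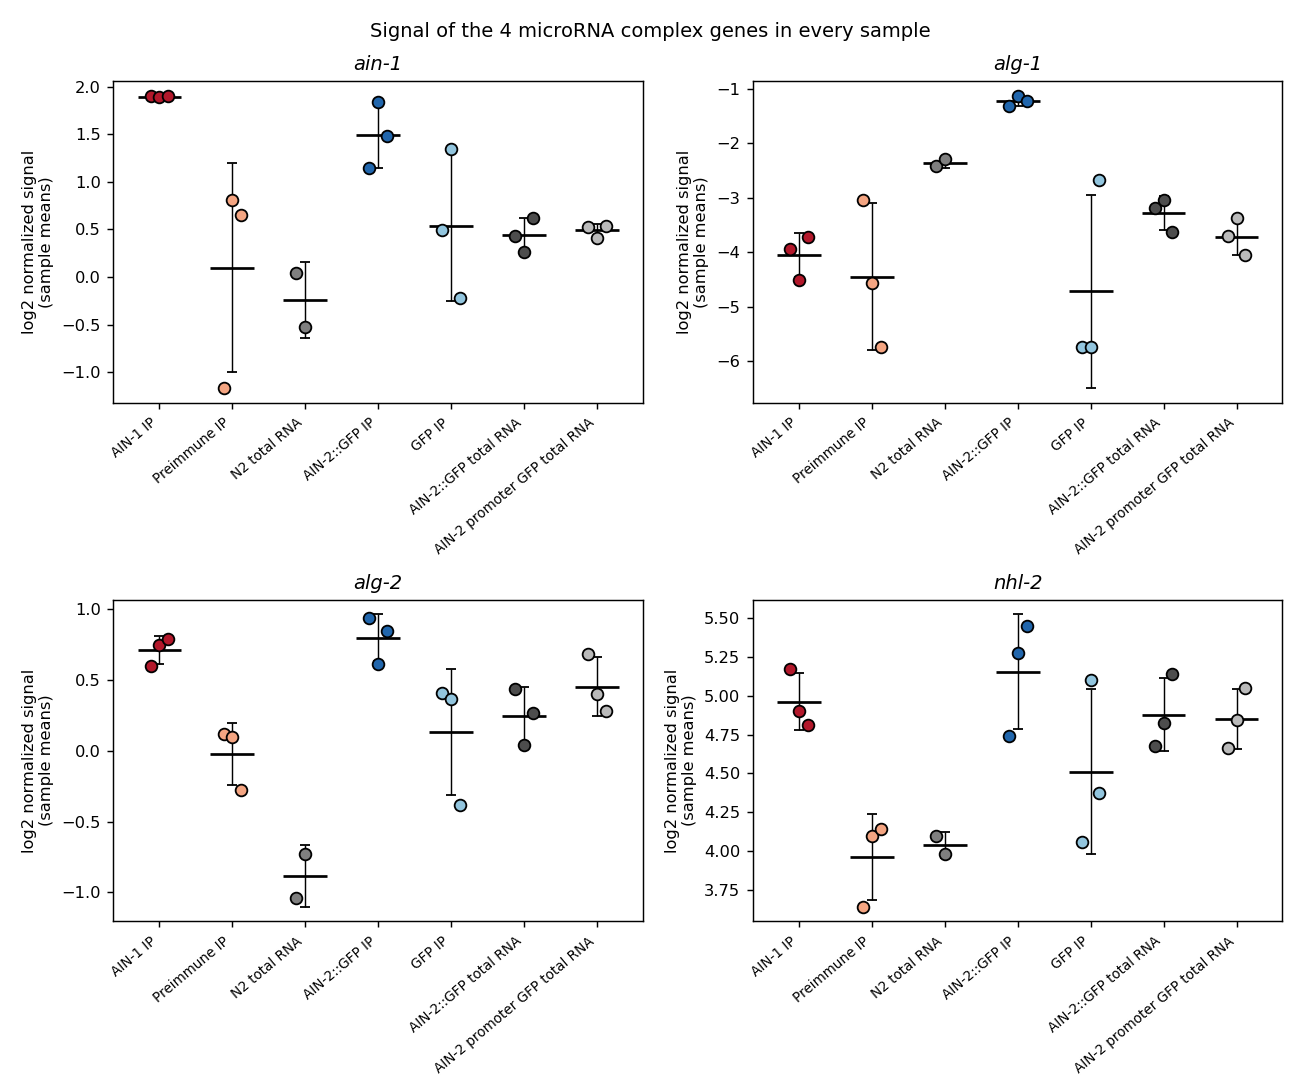
Normalized log2 signal (log2 of sample means after quantile normalization) of ain-1, alg-1, alg-2 and nhl-2 in the 7 groups, with a point for each sample, a horizontal line for the group mean and bars for the SD. The AIN-1 IP is highest for ain-1 (mean 1.89), the AIN-2::GFP IP is highest for alg-1 (mean -1.22), and N2 total RNA is lowest for ain-1 and alg-2.

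Recovery beyond the level in the same strain was examined by setting the AIN-1 IP against N2 total RNA. The mRNAs of ain-1 and alg-2 rose. The gene ain-1 was higher by 2.08 ± 0.56 log2 (SE, limma, adjusted p = 0.0256, 4.22-fold) and alg-2 by 1.58 ± 0.40 (adjusted p = 0.0184, 2.99-fold), in 3 of 3 IP samples each. So 2 of 4 members were called higher and 0 lower, where 6.1% of the 12222 features tested were called higher and 5.65% lower. The difference of nhl-2 was 0.90 ± 0.42 (adjusted p = 0.192).

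For alg-1 the AIN-1 IP was at least 2.46-fold lower than N2 total RNA, a difference that missed the threshold (limma, -1.67 ± 0.83, adjusted p = 0.216). The difference was -1.76 ± 0.29 (adjusted p = 0.0256) when limma was fitted to these groups alone, without the control IPs and their floored values. That fit called 4218 features, against 1437 in the main fit, and the cause was not tested. Among all tested features the difference of ain-1 lay at the 91.7, alg-2 at the 84.8 and nhl-2 at the 70.6 percentile.

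Leaving out any of the 5 samples ended the ain-1 call over N2 total RNA (adjusted p of 0.0547 to 0.192), while its difference stayed between 1.94 and 2.20. For alg-2, leaving out replicate 2 (adjusted p = 0.0852) or 3 (0.0511) of the AIN-1 IP ended the call, and so did leaving out N2 total RNA replicate 1 (0.225) or 2 (0.0900). It also missed the threshold under mean scaling (1.08, 0.10) and cyclic loess (1.43, 0.0917). A spot for cdc-42 lay above the background limit in all IP samples from N2 worms and in those numbered 1 of both transgenic IPs, and in no other sample. Membership in that set was used as a covariate, a choice made after earlier results of these data. Then ain-1 differed by 2.37 (adjusted p = 0.0908) and alg-2 by 1.27 (adjusted p = 0.177). Every AIN-1 IP sample was in the set and no N2 total RNA sample was. The set effect was thus estimated only from replicate 1 against replicates 2 and 3 of the transgenic IPs. In the GFP IP that replicate was also the brightest (370 scanner units against 46 and 12). These values therefore cannot separate set membership from the AIN-1 IP itself.

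Group means of N2 total RNA lay below those of both transgenic strains for ain-1, alg-2 and nhl-2 and above them for alg-1. Against the mean of the transgenic total RNA groups, N2 differed by -1.24 ± 0.35 for alg-2 (limma, adjusted p = 0.112), -0.83 ± 0.38 for nhl-2 (0.370), -0.70 ± 0.50 for ain-1 (0.638) and 1.14 ± 0.74 for alg-1 (0.592). No member was called there, where 1.04% of features were, and 2 of the 4 had an unadjusted p under 0.05, against 12.9% of features. In RNA of whole worms, fewer cells of a type and less RNA per cell cannot be told apart. With the 6 transgenic total RNA samples as the reference, the AIN-1 IP difference was 1.37 for ain-1 (adjusted p = 0.0431), 0.34 for alg-2 (0.485), 0.07 for nhl-2 (0.914) and -0.53 for alg-1 (0.618).

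The AIN-1 IP was set against the preimmune IP to ask about recovery beyond nonspecific binding. Of the 4 members ain-1 rose, by 1.68 ± 0.51 (SE, limma, adjusted p = 0.0436, 3.20-fold), where 9.44% of features were called higher and 2.36% lower. The median difference of all features was 0.42. Among them ain-1 lay at the 82.1, nhl-2 at the 65.7, alg-2 at the 58.3 and alg-1 at the 50.9 percentile. The differences were 0.95 ± 0.38 for nhl-2 (adjusted p = 0.121), 0.70 ± 0.36 for alg-2 (0.219) and 0.45 ± 0.75 for alg-1 (0.737). For alg-1 no sample of either group was above the background limit, and its difference turned to -0.70 under mean scaling and to -0.30 under cyclic loess.

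This call ended when replicate 1 (adjusted p = 0.0971), 2 (0.179) or 3 (0.0866) of the AIN-1 IP was left out, and without preimmune replicate 1 (1.13, adjusted p = 0.0684), the replicate at 3 scanner units. It was also lost under cyclic loess (1.07, 0.0851) and with limma fitted to these groups alone (1.62 ± 0.74, 0.468). Same-numbered IP and control IP samples carried opposite dyes and deviated together, but whether they are pairs was not tested. With each presumed pair, and the N2 total RNA samples together, as a random block nhl-2 passed at 0.95 ± 0.33 (limma, adjusted p = 0.0494). Under mean scaling nhl-2 (1.89, adjusted p = 0.0260) and alg-2 (1.25, adjusted p = 0.0475) passed as well.

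As the background of these values, the preimmune IP was itself set against N2 total RNA. None of the 4 members was called (limma), where 13.1% of features were called in either direction, and 2 of them had an unadjusted p under 0.05, against 29.9% of features. The differences were -2.12 ± 0.83 for alg-1 (adjusted p = 0.102), 0.88 ± 0.40 for alg-2 (0.149), 0.40 ± 0.56 for ain-1 (0.658) and -0.05 ± 0.42 for nhl-2 (0.947). For alg-1 the limit of the dim preimmune samples was too high to give a fold, and without preimmune replicate 1 the difference was -2.79 (adjusted p = 0.0335). The AIN-1 and preimmune comparisons share the N2 samples.

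The AIN-2::GFP IP was compared with total RNA of the same strain. The largest difference of the 4 was that of alg-1, at 2.06 ± 0.74 log2 (SE, limma, adjusted p = 0.123, 4.17-fold), with IP replicates at 1.97, 2.15 and 2.05 above the total RNA mean. This value lay at the 95.3 percentile of all tested features. The differences were 1.05 ± 0.50 for ain-1 (adjusted p = 0.257), 0.55 ± 0.35 for alg-2 (0.419) and 0.27 ± 0.38 for nhl-2 (0.738). No member was called, where 2.79% of features were called higher and 2.72% lower, and 1 of the 4, alg-1, had an unadjusted p under 0.05 (0.0138), as did 19.8% of features.

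Whether alg-1 passed in this comparison varied with the processing. With values floored at the 20th percentile its difference was again 2.06 and the adjusted p 0.0179, and with limma fitted to these groups alone the SE was 0.23 and the adjusted p 0.0101. In that last fit ain-1 also passed (1.05 ± 0.28, adjusted p = 0.0492). The same fit called 3232 features, against 673 in the main fit, and the cause was not tested. The spread of alg-1 in the shared fit includes the control IPs, where its SD was 1.35 (preimmune) and 1.77 (GFP IP) against 0.09 in the AIN-2::GFP IP.

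Against the GFP IP, from worms with GFP alone, alg-1 rose. It was above the background limit in 3 of 3 AIN-2::GFP IP samples and 0 of 3 GFP IP samples and at least 2.10-fold higher (limma, fitted difference 3.55 ± 0.75, adjusted p = 0.0150), where 2.97% of features were called higher and 1.27% lower. With 2 of the 3 GFP IP values at the floor, the fitted difference itself depends on that floor. The other members differed by 0.83 ± 0.51 for ain-1 (adjusted p = 0.422), 0.63 ± 0.36 for alg-2 (0.389) and 0.59 ± 0.38 for nhl-2 (0.467).

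The alg-1 call was lost without AIN-2::GFP IP replicate 2 (3.56, adjusted p = 0.0871) or GFP IP replicate 2 (2.94, 0.0778), where that control sample read -4 scanner units. It was also lost under mean scaling (3.51, 0.101) and with limma fitted to these groups alone (3.77, 0.298). Without GFP IP replicate 1, the bright one, it was 4.51 (adjusted p = 0.00353).

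The GFP IP over promoter GFP total RNA gave no call for any member (limma), where 3 features or 0.0245% were called, and no member had an unadjusted p under 0.05, against 10.9% of features. The differences were 0.05 ± 0.50 for ain-1 (adjusted p = 0.988), -1.01 ± 0.74 for alg-1 (0.671), -0.32 ± 0.35 for alg-2 (0.812) and -0.34 ± 0.38 for nhl-2 (0.818). Subtracting this control enrichment from that of the AIN-2::GFP IP left 3.07 ± 1.05 for alg-1 (adjusted p = 0.360), 1.00 ± 0.70 for ain-1 (0.852), 0.87 ± 0.50 for alg-2 (0.760) and 0.61 ± 0.53 for nhl-2 (0.899). In that test of the difference 0.0245% of features were called and no member was, with alg-1 at an unadjusted p of 0.0102, where 8.02% of features were under 0.05. The alg-1 value adds a difference between groups with no sample above the limit, so its size is not a measured one. The total RNA of the AIN-2::GFP strain and that of the promoter GFP strain differed by 0.48 ± 0.75 for alg-1 and by -0.24 to -0.03 for the other members, and 0.00818% of features were called there. None of the members was called or had an unadjusted p under 0.05, which 0.36% of features had.

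**Figure D3:**
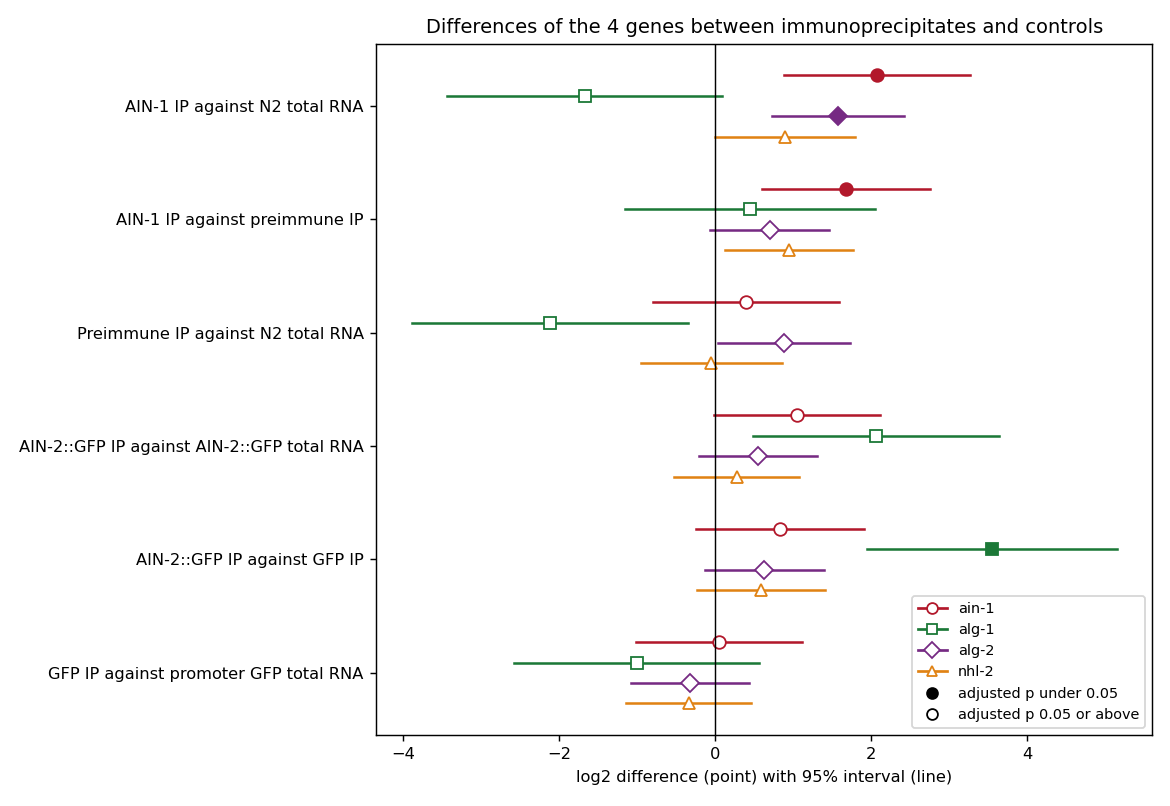
Log2 differences (points) of the 4 genes in 6 comparisons with their 95% intervals (lines), filled where the adjusted p is under 0.05. The filled points are ain-1 and alg-2 in the AIN-1 IP against N2 total RNA (2.08 and 1.58), ain-1 in the AIN-1 IP over its preimmune control (1.68) and alg-1 in the AIN-2::GFP IP against the GFP IP (3.55).

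Whether the complexes differed was tested as AIN-1 enrichment over N2 total RNA minus AIN-2::GFP enrichment over its own total RNA. For alg-1 this difference was -3.73 ± 1.11 (limma, unadjusted p = 0.00422, adjusted p = 0.532), with every AIN-1 IP sample below its total RNA and every AIN-2::GFP IP sample above. It was 1.03 ± 0.75 for ain-1 (adjusted p = 1.00), 1.03 ± 0.53 for alg-2 (0.924) and 0.62 ± 0.57 for nhl-2 (1.00), so these did not differ detectably, with 95% intervals of -0.57 to 2.62, -0.10 to 2.16 and -0.59 to 1.83. No AIN-1 IP sample was above the limit for alg-1, so the size of its difference rests on readings under it. The preimmune IP was also below N2 total RNA for alg-1, by -2.12 ± 0.83 (limma, adjusted p = 0.102), with no preimmune sample above the limit. The test called 1 feature of 12222, or 0.00818%, and no member. With limma fitted to these 4 groups alone the alg-1 difference was -3.76 ± 0.41 (adjusted p = 0.0110), in a fit that called 263 features.

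**Figure D4:**
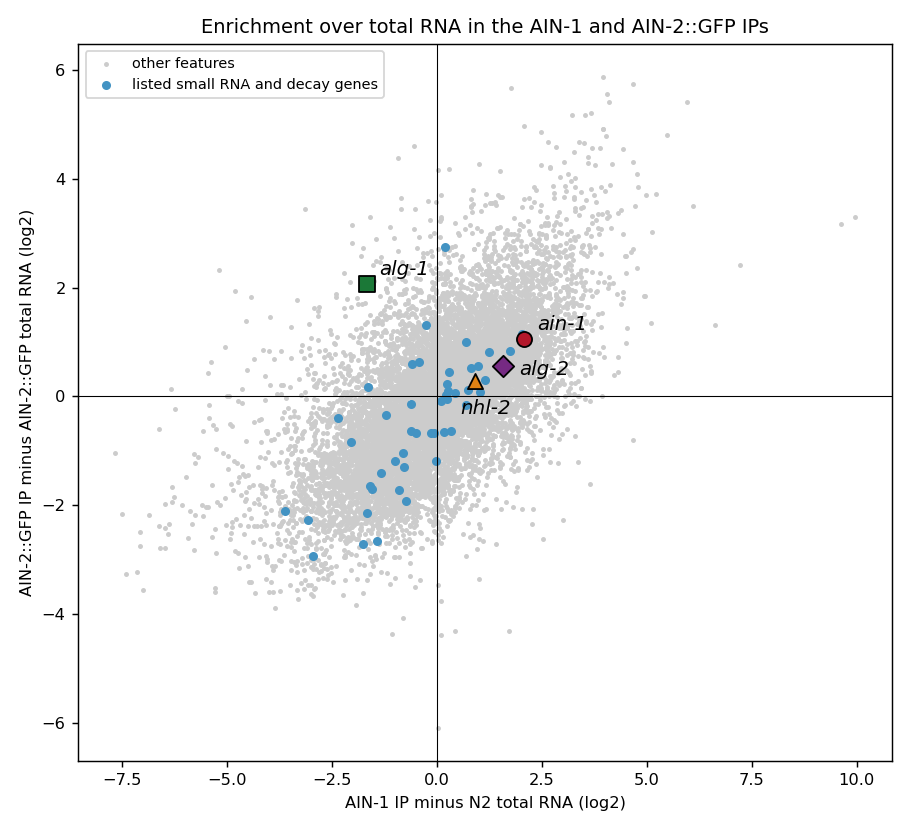
Log2 difference of the AIN-1 IP from N2 total RNA (horizontal) and of the AIN-2::GFP IP from AIN-2::GFP total RNA (vertical) for 12222 features, with features of listed genes of small RNA pathways and mRNA decay in blue. The genes ain-1 (2.08 and 1.05), alg-2 (1.58 and 0.55) and nhl-2 (0.90 and 0.27) lie in the upper right and alg-1 (-1.67 and 2.06) in the upper left.

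The study's design text defines association through ranks. The ratio of each IP replicate to the mean total RNA profile is ranked over all features, the mean rank must exceed the average of all features by the methods' t-test, the signal must exceed background, and the control IP must miss the same mark. On the deposited values ain-1 ranked at the 94.6, 94.6 and 93.8 percentile in the AIN-1 IP replicates and at 61.9, 66.5 and 75.8 in those of the preimmune control. It ranked at 78.0, 91.1 and 82.1 in the AIN-2::GFP IP and at 55.6, 59.0 and 45.8 in the GFP IP. It met the rule in both IPs.

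The ranks of alg-1 were 18.5, 13.3 and 18.6 in the AIN-1 IP, from readings under the background limit, and 92.2, 94.0 and 92.9 in the AIN-2::GFP IP. Its GFP IP ranks of 11.5, 4.58 and 82.7 and preimmune IP ranks of 65.2, 27.5 and 21.7 come from readings of -4 to 5 scanner units. It met the rule for AIN-2 and not for AIN-1.

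The ranks of alg-2 were 85.7, 88.7 and 88.9 in the AIN-1 IP, but the preimmune IP, at 71.2, 65.8 and 71.2, passed the same mark, so alg-2 did not meet the rule for AIN-1. It met the rule for AIN-2, with ranks of 77.8, 74.8 and 69.0 against 53.5, 34.6 and 44.3 in the GFP IP. The ranks of nhl-2 were 89.9, 88.9 and 84.0 in the AIN-1 IP, where it met the rule, against 59.8, 57.0 and 74.5 in the preimmune control. They were 58.9, 80.5 and 81.2 in the AIN-2::GFP IP, and nhl-2 missed the threshold.

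By that rule 2 of 4 members were AIN-1 associated, where 15.8% of 15911 ranked features were, and 3 of 4 were AIN-2 associated, where 9.93% of 16328 were. Under limma the AIN-1 IP exceeded both total RNA and control IP for 1 member, ain-1, and for 2.59% of features. Its call over total RNA was lost in all 5 fits that left out 1 sample. The AIN-2::GFP IP did so for 0 members and 1.51% of features, with alg-1 past the threshold against the GFP IP alone.

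**Figure D5:**
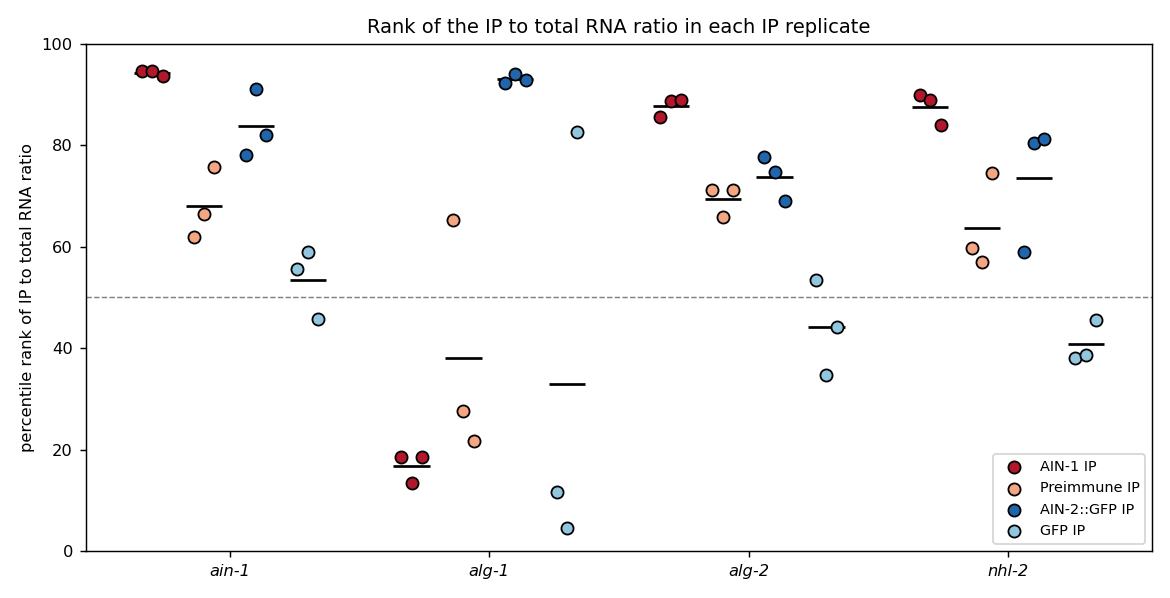
Percentile rank of the IP to total RNA ratio (vertical axis, 0 to 100) in each replicate (points) of the 4 IPs, with the mean as a line, for each gene. The AIN-1 IP points lie between 84.0 and 94.6 for ain-1, alg-2 and nhl-2 and between 13.3 and 18.6 for alg-1, whose AIN-2::GFP IP points lie between 92.2 and 94.0.

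Other genes of these pathways were described from 8 lists. Beside the members they held 69 genes, of which 45 passed the low-signal filter. Over N2 total RNA, 1 of the 45 rose and 3 fell in the AIN-1 IP, with a median of -0.27 (all features 0.11), so the share that fell was near the 5.65% of all features. The deadenylase complex subunit ntl-3 rose (2.03 ± 0.56, limma, adjusted p = 0.0286), while the other 2 of its 3 probes gave 0.21 and 0.24. Of those, 1 was too dim to be tested and the other was above background in 1 sample of each group. The gene rack-1, which encodes a ribosome-bound scaffold protein, fell (-2.96 ± 0.44, 8.47e-04). The Piwi Argonaute prg-2 and the exoribonuclease xrn-2 fell to spots not above background, by at least 5.07-fold (adjusted p = 0.0388) and at least 1.31-fold (0.0210). Their other probes, too dim to be tested, gave -0.07 and -0.84.

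In the AIN-2::GFP IP over its total RNA 4 of the 45 fell and 0 rose, with a median of -0.35 (all features -0.00), where 2.72% of all features fell. These were rack-1 (-2.93 ± 0.39, limma, adjusted p = 6.34e-04) and the secondary small RNA Argonautes hrde-1 (-1.92 ± 0.47, 0.0264), wago-2 (at least 1.36-fold lower, 0.0281) and vsra-1 (at least 1.90-fold lower, 0.0494). For wago-2 and vsra-1 no IP sample was above background. The GFP IP differed from its own total RNA by -0.10 ± 0.39 for rack-1 and called 0 of the 45. That comparison called 0.0245% of all features, so the absence of calls there is no result about these genes.

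By list, 13 Argonautes outside the microRNA pathway were tested, and over total RNA 1 fell with AIN-1 and 3 fell with AIN-2, with none higher. Of all features, 6.1% were called higher and 5.65% lower with AIN-1, and 2.79% and 2.72% with AIN-2. None of 13 P-body and decapping genes was called in either, with medians of -0.15 for AIN-1 and -0.65 for AIN-2. Of 9 deadenylation genes 1 rose (ntl-3) with AIN-1 and 0 were called with AIN-2. Of 4 microRNA processing genes 1 fell (xrn-2) with AIN-1 and 0 with AIN-2, and of 3 modulators of the complex 1 (rack-1) fell with both. None of the 4 TRIM-NHL genes, nhl-2 included, was called. The GW182-family and microRNA Argonaute lists held no tested gene beyond the members.

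Against the preimmune IP, 1 of the 45 rose in the AIN-1 IP and 2 fell (9.44% and 2.36% of all features). The riser, wago-5, was above background in 3 of 3 AIN-1 IP and 0 of 3 preimmune samples (limma, adjusted p = 0.0379), with too high a limit in the dim preimmune samples for a fold. Its other probe, above background in no sample of these groups, gave -1.77. The genes that fell were rack-1 (-2.15 ± 0.40, 0.00378) and the decapping activator subunit lsm-5 (-2.66 ± 0.71, 0.0263). Against the GFP IP, 0 rose and 2 fell in the AIN-2::GFP IP (2.97% and 1.27% of all features), rack-1 (-3.02 ± 0.40, 0.00116) and wago-2 (adjusted p = 0.0159). For wago-2, 1 of 3 GFP IP samples and 0 of 3 AIN-2::GFP IP samples were above background, so no fold is given. In the preimmune IP 2 of the 45 were lower than in N2 total RNA, where 13.1% of all features were called in either direction. These were let-711 (at least 1.14-fold, 0.0198) and sago-2 (0.0262), neither above background there. For sago-2 the limit of the dim preimmune samples was too high to give a fold.

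Across the 20 samples the genes most like each member in normalized log2 signal were found among 7065 other features with gene-class names, as a description. They were pph-1 (Pearson r = 0.950), lgc-46 (0.942) and zmp-6 (0.938) for ain-1, and metr-1 (0.923), unc-97 (0.887) and spr-4 (0.883) for alg-2. For nhl-2 they were the histone demethylase gene utx-1 (0.964), the ataxin-2 gene atx-2 (0.960) and tbc-2 (0.951). For alg-1 they were mfb-1 (0.806), yap-1 (0.785) and the yolk protein gene vit-2 (0.765). The AIN-1 IP minus N2 total RNA was -1.46 for mfb-1, -2.01 for yap-1 and -0.83 for vit-2, and the AIN-2::GFP IP minus its total RNA was 2.90, 0.73 and 2.47. The samples share groups and dyes, so the correlations describe patterns across these groups. Among the members r was 0.737 between ain-1 and nhl-2, 0.672 between ain-1 and alg-2, 0.627 between alg-2 and nhl-2, and -0.07, 0.03 and 0.20 between alg-1 and ain-1, alg-2 and nhl-2.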

How the data were processed

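Per the labels' protocols, RNA went through a single amplification and a Cy3 or Cy5 label. The deposited values are spot intensity on a linear scale, mean normalized by the authors per the series text, and 100% became whole numbers (within 0.01) when multiplied by each sample's mean in scanner units. The sources used here do not name the scanner or how background was subtracted. Of 23232 features 17461 had 1 gene in the probe table, 0 several and 5771 none, and 17371 matched RefSeq by Entrez ID, with 0 symbols changed.

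Values were quantile normalized, floored at the 10th percentile of the positive values (0.0187 sample means, which held 32.9% of values) and put on a log2 scale. Features above the 30th percentile of mean signal (12222, of 11812 genes, the 4 members included) were fitted with limma 3.58.1 in R 4.3.3, with 7 group means and the dye over all 20 samples. Tests were two-sided with Benjamini-Hochberg adjustment over all features and a threshold of 0.05, and ± gives the SE of a difference. Figures used Python 3.11.15. The fit was tested on simulated data, with the outcome not given here.

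The background limit was the median plus 2 MADs of the chemoreceptor features. Where no sample of a group passed it, "at least N-fold" sets the brighter group's mean against the higher of limit and signal. It describes observed means and makes no allowance for sampling error. Replicates were independent biological ones per the series text, and 0 pairs of samples held identical values. Deviations from the fit correlated at 0.354 to 0.592 between same-numbered AIN-1 and preimmune IPs and at 0.396 to 0.595 between AIN-2::GFP and GFP IPs. Between the transgenic total RNAs they correlated at 0.432 to 0.698. These same-numbered samples carried opposite dyes. Samples with different numbers were not compared, so whether the numbers pair samples was not tested. The labels name no shared array. Same-numbered IP and total RNA samples of the AIN-2::GFP strain correlated at 0.0763 to 0.163, and the 2 such preimmune and N2 pairs at 0.330 and 0.404. The AIN-1 IP and N2 total RNA gave 0.112 and 0.0753, and the GFP IP and its total RNA -0.148 to 0.0391. Alternatives were mean scaling, cyclic loess, a floor at the 20th percentile, no filter, no dye term, replicate and pair blocks, the cdc-42 sample set, only the groups compared, transgenic total RNA as the reference, leaving out each sample, and the design text's rank rule, with 0.01 as its threshold and the above limit in place of empty spots.

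The members, the lists (GW182 family, microRNA and other Argonautes, TRIM-NHL proteins, microRNA processing, P-body and decapping, deadenylation, modulators) and the alternatives were chosen with earlier results of these data known. Named genes are the members, list genes past the threshold, and the 3 genes most correlated with each member (symbols of letters, hyphen and number). Of several probes the one with the highest mean signal stood for a gene.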

Additional observations from a re-analysis of the deposited data

Results flagged for a closer look

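The alg-1 spot differed from total RNA in opposite directions in the 2 kinds of IP. All 3 AIN-1 IP samples lay below the mean of N2 total RNA (by -1.58, -2.15 and -1.37 log2). All 3 AIN-2::GFP IP samples lay above the mean of their total RNA (1.97, 2.15 and 2.05). The preimmune IP samples also lay below N2 total RNA (-0.69, -2.20 and -3.39), none above the background limit. Against the preimmune IP the AIN-1 IP differed by 0.45 ± 0.75 (limma, adjusted p = 0.737). With no alg-1 reading of either IP above the limit, these values cannot tell whether the fall was particular to the AIN-1 IP. The difference of the enrichments, -3.73, was tested and missed the adjusted threshold (limma, adjusted p = 0.532). The AIN-1 IP readings were under the background limit, so its size is not a measured one. For alg-2 all AIN-2::GFP IP samples lay above their total RNA mean (0.69, 0.37 and 0.60) and all GFP IP samples below theirs (-0.04, -0.09 and -0.84). Against its total RNA, the median of all features was -0.22 in the GFP IP and -0.00 in the AIN-2::GFP IP. Among those features alg-2 lay at the 45.1 and 69.7 percentile. The alg-2 difference of enrichments was 0.87 and also missed the threshold (limma, adjusted p = 0.760). Mean signal in the GFP IP was 370, 46 and 12 scanner units, and its part in this difference was not tested. Groups of 2 or 3 samples were not screened for outlying samples.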

How the results depend on the processing

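Of 364 member differences recomputed under processing alternatives, 332 kept direction and side of the threshold, 9 turned direction, 14 gained a call and 9 lost one. Of 284 recomputed without 1 sample, 262 kept both. Unless named, the cause was not tested. Below, each log2 difference is followed by its adjusted p from limma. Mean scaling, which moved the median of all features in the AIN-1 IP against N2 total RNA by -1.12, gave 1.08 (0.10) for alg-2 there. For the AIN-1 against the preimmune IP it gave -0.70 for alg-1, 1.25 (0.0475) for alg-2 and 1.89 (0.0260) for nhl-2. It gave -0.47 for ain-1 and -0.16 for alg-2 in the preimmune IP against N2, -0.13 for ain-1 in the GFP IP against its total RNA and 3.51 (0.101) for alg-1 between AIN-2::GFP and GFP IPs. Cyclic loess gave alg-2 1.43 (0.0917) in the AIN-1 IP against N2, nhl-2 0.10 in the preimmune IP against N2, and ain-1 1.07 (0.0851) and alg-1 -0.30 in the AIN-1 against the preimmune IP. The cdc-42 sample set as a covariate gave ain-1 2.37 (0.0908) and alg-2 1.27 (0.177) in the AIN-1 IP against N2, and nhl-2 0.60 in the preimmune IP against N2. The transgenic reference gave alg-2 0.34 (0.485). A floor at the 20th percentile gave alg-1 2.06 (0.0179) in the AIN-2::GFP IP against its total RNA and alg-2 -1.24 (0.0446) in N2 against transgenic total RNA, where no low-signal filter gave -1.24 (0.0208).

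With limma fitted to only the groups compared, which uses fewer samples, alg-1 was at -1.76 (0.0256) in the AIN-1 IP against N2, 2.06 (0.0101) in the AIN-2::GFP IP against its total RNA, 3.77 (0.298) against the GFP IP and -3.76 (0.0110) between the enrichments. In such fits ain-1 was at 1.62 (0.468) in the AIN-1 against the preimmune IP and 1.05 (0.0492) in the AIN-2::GFP IP against its total RNA. N2 against transgenic total RNA was then -0.70 (0.0434) for ain-1, 1.14 (0.0301) for alg-1, -1.24 (0.0140) for alg-2 and -0.83 (0.0330) for nhl-2. Between the transgenic total RNAs nhl-2 was 0.0170 in such a fit and 0.0285 with no dye term.

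The replicate block changed no member's call. With it ain-1 was at 2.07 (0.0307) over N2 total RNA and 1.66 (0.0474) over the preimmune IP, and alg-1 at 3.56 (0.0235) over the GFP IP. The presumed pair of same-numbered samples as a random block, with the N2 total RNA samples together as a further block, gave nhl-2 0.95 (0.0494) over the preimmune IP.

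Without 1 sample at a time, the AIN-1 IP against N2 ranged from 1.94 to 2.20 for ain-1 and 1.33 to 1.81 for alg-2. The preimmune IP against N2 ranged from -2.79 to -1.45 for alg-1 and -0.169 to 0.0822 for nhl-2. The AIN-1 against the preimmune IP ranged from 1.13 to 2.01 for ain-1 and -0.20 to 1.09 for alg-1. The AIN-2::GFP against the GFP IP ranged from 2.94 to 4.51 for alg-1, the GFP IP against its total RNA from -0.29 to 0.38 for ain-1, and the transgenic total RNAs from -0.13 to 0.10 for nhl-2.

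Members past both the total RNA and the control IP numbered 1 with AIN-1 (2.59% of all features), and 0 under cyclic loess, the cdc-42 set or only the groups compared, 0 to 1 without 1 sample, and 2 under the rank rule. With AIN-2 they numbered 0 (1.51% of all features), but 1 with the floor at the 20th percentile and 3 under the rank rule. Counts of called features moved more, from 1437 to between 568 (cdc-42 set) and 4218 (only the groups compared) in the AIN-1 IP against N2 and from 1443 to between 0 (only the groups compared) and 2603 (random block) against the preimmune IP. They moved from 673 to between 576 (mean scaling) and 3232 (only the groups compared) in the AIN-2::GFP IP against its total RNA and from 518 to between 0 (only the groups compared) and 1143 (random block) against the GFP IP. They moved from 1597 to between 0 (only the groups compared) and 2685 (mean scaling) in the preimmune IP against N2, from 3 to between 0 and 97 in the GFP IP against its total RNA, and from 127 to between 42 and 2939 in N2 against transgenic total RNA. For the enrichments they moved from 3 to between 0 and 122 (AIN-2::GFP minus GFP) and from 1 to between 0 and 263 (AIN-1 minus AIN-2::GFP). Without 1 sample at a time the counts were 290 to 916 (AIN-1 IP against N2), 519 to 2535 (against the preimmune IP), 221 to 400 (AIN-2::GFP IP against its total RNA), 23% of the 518 up to 925 (against the GFP IP), 176 to 2648 (preimmune IP against N2), 0 to 555 (GFP IP against its total RNA, with 555 without GFP IP replicate 1) and 23 to 85 (N2 against transgenic total RNA). They were 0 to 146 and 0 to 38 for the enrichments. Low signal in the preimmune IP and in GFP IP replicates 2 and 3 limits the comparisons with those groups.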
